A study of Gallus gallus with 6 samples.

Results

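Chemokine ligand genes were followed in sorted ileal macrophages of broilers, chickens bred for meat. The genes were taken by name: 10 symbols of CC, CXC and CX3C ligands (IL8L1, IL8L2, CCL4, CCL5, CCL19, CCL20, CCL17, CXCL12, CXCL13L2 and CX3CL1) matched 11 of the 27656 genes of the deposited table, because CCL4 is listed at 2 places. Birds of both groups had received an injection of lipopolysaccharide (LPS), an outer-membrane component of Gram-negative bacteria that provokes inflammation. The LPS+LR21 group (3 libraries, named LR1_2, LR3 and LR4 after their columns) was also given the gut bacterium Lactobacillus reuteri by gavage, and the LPS group (3 libraries, LPS1, LPS2 and LPS3) was not. Cells were sorted by flow cytometry with KUL01, an antibody to a chicken mannose receptor, and their polyadenylated RNA was sequenced. The strain, age, LPS dose and timing are not given in the sources used here, nor is the number of birds behind a library.

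Chemokines are small secreted proteins that draw leukocytes along a concentration gradient by binding G protein-coupled receptors on them. Inflammatory chemokines are made by macrophages, epithelium and other cells when toll-like receptors sense bacteria, and they recruit heterophils (the avian counterpart of neutrophils), monocytes and T cells. Homeostatic chemokines place lymphocytes and dendritic cells in lymphoid tissue.

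Total counts ranged from 31284679 to 45492503 in the LPS+LR21 libraries and from 38492909 to 44786499 in the LPS libraries, so that a floor of 3 counts was 0.0659 to 0.0959 CPM (counts scaled to a common library total), a limit that covers counting error only. Of 19 macrophage markers measured, 18 averaged 1 FPKM (fragments per kilobase of gene, scaled to the library total) or more, and their summed FPKM was 1682 to 4288 in the LPS+LR21 libraries and 5630 to 7462 in the LPS libraries. CSF1R, the receptor of the macrophage growth factors, had 58.7 to 164 FPKM in the LPS+LR21 libraries and 284 to 346 in the LPS libraries. It was not called (log2 fold change -1.64, adjusted p = 0.127, edgeR). The 17 epithelial markers summed to 1884 to 8692 FPKM in the LPS+LR21 libraries, with LR3 lowest, and to 576 to 992 in the LPS libraries. Of these markers 5 rose and none fell, while 1 of the 19 macrophage markers and 2 of the 10 tested markers of fibroblasts and smooth muscle fell, beside 1.06% of 20745 tested genes called in either direction (202 rose and 17 fell, edgeR). Leaving out any library other than LR3 left no gene of the table called (edgeR; 1643 to 2764 at an unadjusted p under 0.05). EPCAM, an adhesion molecule of epithelial cells, had 201 to 700.2 FPKM in the LPS+LR21 libraries and 71.3 to 102 FPKM in the LPS libraries. It was called (log2 fold change 2.46, adjusted p = 0.0449, edgeR). Neither CSF1R nor EPCAM overlapped between the groups in FPKM, as was true of 19.4% of all tested genes. The 11 T and NK cell markers summed to 320 to 452 FPKM in the LPS+LR21 libraries and 132 to 182 in the LPS libraries, and the 13 heterophil markers summed to 73.5 to 371 FPKM and 255 to 1233 FPKM in the same order. No marker of these lists was without a count in all 6 libraries. In such bulk RNA, fewer cells of a type and less RNA per cell cannot be told apart, and the part that other cells had in the chemokine values was not tested. LR3 stood apart from the other LPS+LR21 libraries and closer to the LPS group (chi-square statistic per degree of freedom 156 to 217 against the LPS libraries, 506 against LR1_2 and 326 against LR4), so values are also given without it. The files do not show whether its label is right, so each value of the LPS+LR21 group holds only as far as that label does.

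The sorted cells carried chemokine RNA at high levels in both groups, led in every library by CCL4. The 11 genes summed to 1701, 4975 and 1340 FPKM in LR1_2, LR3 and LR4, against 2373, 3567 and 3610 in LPS1, LPS2 and LPS3. LR3 thus held the highest sum of the 6 libraries, and LR1_2 and LR4 the 2 lowest. None of the 11 genes passed the test between the groups, where 1.06% of 20745 tested genes did (quasi-likelihood test of edgeR, adjusted p under 0.05 by the Benjamini-Hochberg method over all tested genes). At an unadjusted p under 0.05 there were 2 of 11, CCL17 and CCL5, beside 2502 of all 20745 tested genes (edgeR). DESeq2 called CCL17 alone among the 11 ligand genes, as lower in LPS+LR21, beside 1.73% of tested genes called lower. Limma-voom with library quality weights, which gave LR3 a weight of 0.334 and the others 1.08 to 1.45, called IL8L2, CXCL13L2 and CCL17 lower, 3 of 11 beside 4.32% of tested genes. Without LR3, edgeR called IL8L2, CXCL13L2 and the more abundant CCL4 gene lower, 3 of 11 beside 3.82% of the 22486 genes then tested. In that fit 17 of the 19 macrophage markers fell. Scaled to the 19 macrophage markers, 5 of the 11 (CCL5, CCL19, CCL20, CX3CL1 and the less abundant CCL4 gene) were called higher, beside 20.3% of tested genes. Of the 11 fitted log2 fold changes 5 were above 0 and 6 below (median -0.28, beside -0.14 over all tested genes).

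**Figure D1:**
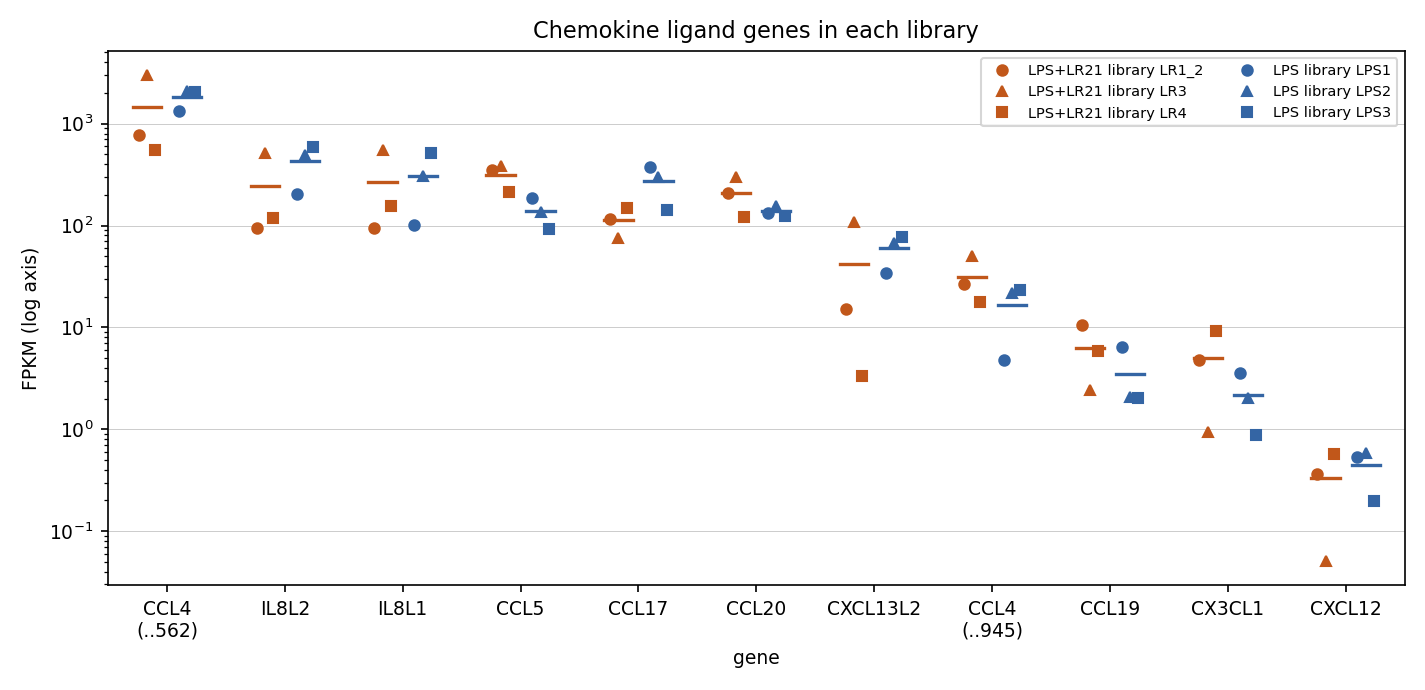
FPKM of the 11 chemokine ligand genes (log axis) in the LPS+LR21 libraries (orange, left) and the LPS libraries (blue, right), in falling order of the mean over all 6; points are libraries and bars are group means. CCL4 (ENSGALG00010029562, at the left) leads at 551 to 2999 FPKM and CXCL12 is lowest at 0.0509 to 0.590 FPKM, and the orange triangle of LR3 is at an end of the LPS+LR21 points in all 11 genes.

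IL8L1 and IL8L2 are the 2 chicken interleukin 8-like genes, whose CXC products attract heterophils and monocytes. They lie side by side on chromosome 4, plus strand, at 50430779 to 50434076 and 50443364 to 50446587, with 9287 bases between them. IL8L1 had 94.4, 547 and 154 FPKM in LR1_2, LR3 and LR4, against 102, 309 and 509 in LPS1, LPS2 and LPS3. The groups overlapped over almost their whole range, and the log2 fold change was -0.28 ± 0.74 (SE, 95% interval -1.94 to 1.38). IL8L2 had 95.3, 512 and 118 FPKM in LR1_2, LR3 and LR4, against 205 (LPS1), 487 (LPS2) and 591 (LPS3). LR1_2 and LR4 lay below every LPS library while LR3 lay within their range, which gave a log2 fold change of -0.88 ± 0.69 (SE, 95% interval -2.43 to 0.67). Without LR3, IL8L2 fell by 2.13 on the log2 scale (adjusted p = 0.0157, edgeR), and IL8L1 had -1.47 (adjusted p = 0.186). In that fit 17 of the 19 macrophage markers fell, with a median of -2.09, and their part in these values was not tested. Adjusted p with all libraries was 0.755 for IL8L2 and 0.958 for IL8L1 (edgeR). The summed heterophil markers, led by S100A12, were 73.5, 371 and 98.4 FPKM in LR1_2, LR3 and LR4, against 255, 408 and 1233 in LPS1, LPS2 and LPS3. Within their groups this sum was highest in LR3 and in LPS3, as were both genes. The median of the 9 tested markers, as log2 CPM minus the LPS mean, was -2.53, -2.38 and -2.24 in LR1_2, LR3 and LR4. By that median LR3 was not the highest LPS+LR21 library. The part of heterophil markers in the values of both genes was not tested.

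Although both genes varied up to 5.79-fold within a group, their balance was steadier. The ratio of IL8L1 to IL8L2 FPKM was 0.991, 1.07 and 1.304 in LR1_2, LR3 and LR4, against 0.495 in LPS1, 0.634 in LPS2 and 0.862 in LPS3. Every LPS+LR21 library had a higher ratio than every LPS library, LR3 included. The mean log2 ratio was 0.15 ± 0.20 in LPS+LR21 and -0.63 ± 0.40 in LPS (SD, n = 3 each), a difference of 0.78 with an exact two-sided permutation p of 0.1, the smallest that 3 against 3 libraries allow. It was 1 of 5 such ratios computed between members, chosen with the levels known, and its adjusted p was 0.167. The p-values of these ratios therefore give no independent support. How often ratios of other gene pairs separate the groups was not computed.

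CCL4, the homologue of a mammalian macrophage inflammatory protein that attracts monocytes and T cells, was the most abundant ligand. The table lists it at 2 places on chromosome 19 under the same Entrez identifier. ENSGALG00010029562 (906402 to 907528, minus strand) had 777, 2999 and 551 FPKM in LR1_2, LR3 and LR4, against 1321, 2089 and 2047 in LPS1, LPS2 and LPS3. Its FPKM equalled or exceeded that of at least 99.6% of tested genes in each library and made up 41.1% to 60.3% of the summed ligand FPKM in LPS+LR21 and 55.7% to 58.6% in LPS. LR1_2 and LR4 were below all LPS libraries and LR3 was above them. The log2 fold change was -0.38 ± 0.64 (SE, adjusted p = 0.923, edgeR), and without LR3 it was -1.52 (adjusted p = 0.0309, edgeR). The 19 macrophage markers had a median of -2.09 without LR3, and their part in the CCL4 values was not tested.

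The second CCL4 gene, ENSGALG00010029945 (chromosome 19, 913121 to 915305, plus strand), had far less RNA. It had 26.5, 50.6 and 17.6 FPKM in LR1_2, LR3 and LR4, against 4.78, 21.6 and 23.3 in LPS1, LPS2 and LPS3. LPS1 was the lowest library and LR3 the highest, and the other 4 lay close together (log2 fold change 0.85 ± 0.62 SE, adjusted p = 0.726, edgeR). The fold change was 0.34 without LR3 and 0.42 without LPS1. Its FPKM relative to the more abundant CCL4 gene was 0.0341, 0.0169 and 0.0319 in LR1_2, LR3 and LR4, against 0.00362, 0.0104 and 0.0114 in LPS1, LPS2 and LPS3. The ratio did not overlap between groups, with a difference of 1.81 on the log2 scale (exact two-sided permutation p = 0.1, adjusted p = 0.167). This pair was chosen with the levels known, so its p gives no independent support. Single genes did not overlap in FPKM for 19.4% of tested genes, and the share for ratios of other gene pairs was not computed. The division of reads between these like-named genes is uncertain, since how the counting shared them is unknown here.

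CCL5, whose product RANTES attracts T cells, NK cells and monocytes and is itself made by T and NK cells as well as macrophages in mammals, is the next gene on chromosome 19 (918950 to 921144, minus strand), 3644 bases from the second CCL4 gene. CCL5 had 355, 381 and 211 FPKM in LR1_2, LR3 and LR4, against 188, 134 and 93.4 in LPS1, LPS2 and LPS3. It was the 1 ligand whose FPKM did not overlap between the groups, as was true of 19.4% of all tested genes. With the factors of the trimmed mean of M-values (TMM) used in the test, LR4 lay within the LPS range. The mean was 316 ± 91.2 FPKM in LPS+LR21 and 138 ± 47.3 in LPS (SD, n = 3 each), and the log2 fold change was 1.09 ± 0.40 (SE, 95% interval 0.19 to 1.99) with an unadjusted p of 0.0223 and an adjusted p of 0.28 (edgeR). It was 0.99 without LR3 (adjusted p = 0.188, edgeR). The summed T and NK cell markers, led by GZMA, likewise did not overlap between the groups. They were 320, 452 and 332 FPKM in LR1_2, LR3 and LR4, against 132, 182 and 148 in LPS1, LPS2 and LPS3. The median of the 11 markers, as log2 CPM minus the LPS mean, did overlap, at -0.07 in LR1_2 and 0.25 in LPS2. None of the 11 was called by edgeR with all libraries. DESeq2, limma-voom with quality weights and edgeR without LR3 called GZMA alone. The part of these markers in the CCL5 values was not tested.

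CCL20, the ligand of CCR6 that epithelium and macrophages produce on bacterial stimulation, was the steadiest of the 11 ligand genes in the LPS group. CCL20 (chromosome 9, 9206095 to 9208357, plus strand) had 207, 299 and 122 FPKM in LR1_2, LR3 and LR4, against 133, 156 and 125 in LPS1, LPS2 and LPS3. Its SD of log2 CPM was 0.81 in LPS+LR21 and 0.12 in LPS, beside medians of 0.49 and 0.36 over the 9839 tested genes that averaged 1 FPKM or more. LR1_2 and LR3 lay above all LPS libraries and LR4 below them, and the log2 fold change was 0.52 ± 0.40 (SE, 95% interval -0.37 to 1.41, adjusted p = 0.745, edgeR). It was 0.21 without LR3 and 0.92 without LR4.

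CCL17, which draws CCR4-bearing T cells and in mammals is a product of dendritic cells and alternatively activated macrophages, had the smallest p of the ligands. CCL17 (chromosome 11, 809887 to 811190, plus strand) had 115, 74.7 and 147 FPKM in LR1_2, LR3 and LR4, against 375, 298 and 141 in LPS1, LPS2 and LPS3. LPS3 lay among the LPS+LR21 libraries in FPKM. With TMM factors the groups did not overlap, which held for 19.0% of tested genes on that scale. The mean was 112 ± 36.3 FPKM in LPS+LR21 and 271 ± 120 in LPS (SD, n = 3 each), and the log2 fold change was -1.43 ± 0.39 (SE, 95% interval -2.31 to -0.55, adjusted p = 0.135, edgeR). The 19 macrophage markers had a median of -1.39 in the same fit, and their part in the CCL17 values was not tested. Under DESeq2 CCL17 passed, at -1.39 (adjusted p = 0.0135), and under limma-voom with quality weights at -1.27 (adjusted p = 0.0459). Without LR3 it did not pass, at -1.15 (adjusted p = 0.116, edgeR). Scaled to the macrophage markers it had the other sign, at 0.32 (adjusted p = 0.723, edgeR). LR3 had the lowest CCL17 value of all 6 libraries, whereas its other abundant ligands were the highest or next to highest.

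**Figure D2:**
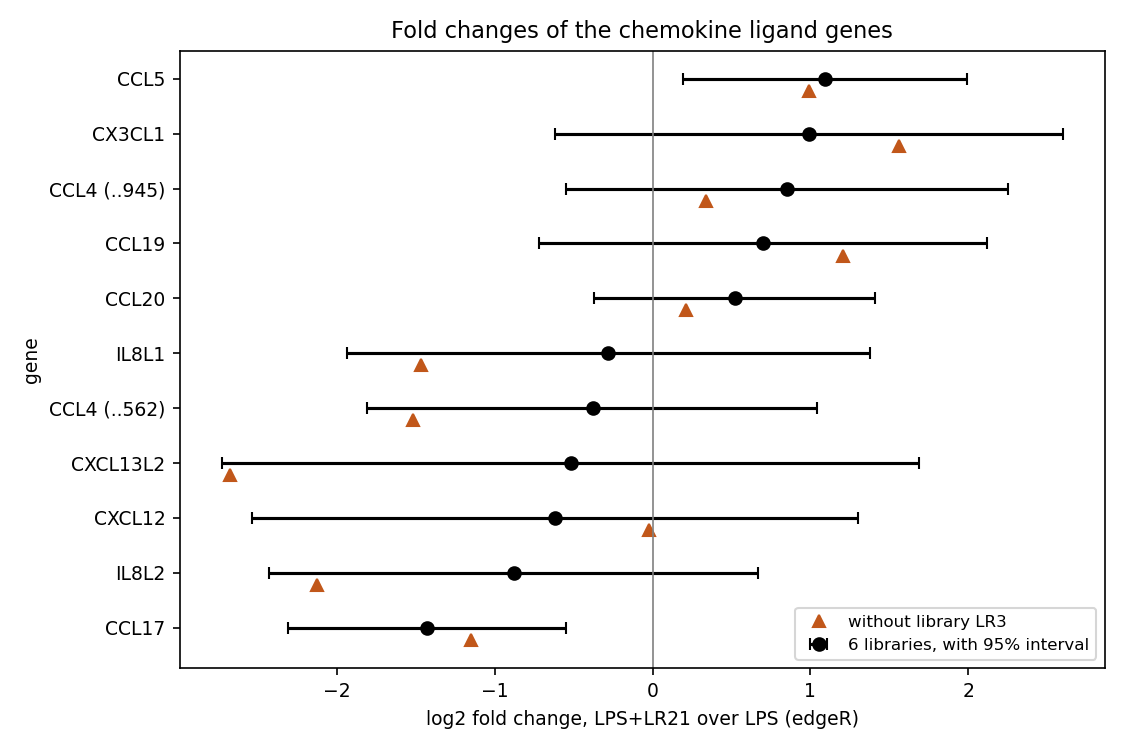
Log2 fold changes of the 11 ligand genes, LPS+LR21 over LPS, from edgeR with all 6 libraries (black, with 95% intervals not adjusted for the number of genes) and without library LR3 (orange triangles). Intervals of CCL5 (0.19 to 1.99) and CCL17 (-2.31 to -0.55) do not reach 0, and the largest shifts without LR3 are those of CXCL13L2 (-0.52 with all libraries and -2.68 without LR3), IL8L2, IL8L1 and the abundant CCL4 gene.

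CX3CL1 lies 4072 bases from CCL17 on chromosome 11 (797798 to 805814, plus strand) and encodes fractalkine, a ligand anchored in the membrane whose mammalian receptor CX3CR1 marks gut macrophages. CX3CL1 had 4.76, 0.936 and 9.22 FPKM in LR1_2, LR3 and LR4, against 3.54, 2.02 and 0.872 in LPS1, LPS2 and LPS3. LR1_2 and LR4 were above all LPS libraries and LR3 was beside LPS3 at the bottom (log2 fold change 0.99 ± 0.72 SE, adjusted p = 0.718; 1.56 without LR3, adjusted p = 0.117; edgeR). The summed epithelial markers were 8692, 1884 and 5516 FPKM in LR1_2, LR3 and LR4, against 992, 799 and 576 in LPS1, LPS2 and LPS3. Within each group LR3 and LPS3 were lowest in FPKM for these markers as for CX3CL1, and likewise for CCL17, CCL19 and CXCL12. Among the LPS+LR21 libraries the markers were highest in LR1_2, whereas CX3CL1 was highest in LR4. The part of these markers in the CX3CL1 values was not tested. The ratio of CCL17 to CX3CL1 FPKM was 24.2, 79.8 and 16.0 in LR1_2, LR3 and LR4, against 106, 147 and 161 in LPS1, LPS2 and LPS3. These neighbours thus stood in a lower ratio in every LPS+LR21 library, by 2.12 on the log2 scale on average (exact two-sided permutation p = 0.1, adjusted p = 0.167). They too were paired with the levels known, so the p gives no independent support. Here too the share of other gene pairs whose ratio separates the groups was not computed. The ratios of CCL5 to the abundant CCL4 gene and of CCL20 to IL8L2, the other 2 of the 5, overlapped between the groups (exact permutation p = 0.2 for each).

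CXCL13L2 is 1 of 3 adjoining chicken genes of the CXCL13 type on chromosome 4, and CXCL13 in mammals attracts B cells through CXCR5. CXCL13L2 (34562640 to 34563675, minus strand) had 15.2, 108 and 3.31 FPKM in LR1_2, LR3 and LR4, against 34.2, 67.9 and 77.6 in LPS1, LPS2 and LPS3. It ranged 32.7-fold within LPS+LR21, the widest of the 11 genes, and its SD of log2 CPM there equalled or exceeded that of 99.2% of the genes averaging 1 FPKM or more. The log2 fold change was -0.52 ± 0.98 (SE, 95% interval -2.73 to 1.69, adjusted p = 0.937, edgeR). Without LR3 it fell by 2.68 on the log2 scale (adjusted p = 0.0441, edgeR), beside a median of -2.09 for the 19 macrophage markers. The part of those markers in the CXCL13L2 values was not tested. CXCL13L2 has 2 neighbours of its type. Its neighbour CXCL13, 245 bases away, had 15.6, 109.5 and 3.16 FPKM in LR1_2, LR3 and LR4, almost the values of CXCL13L2, but 16.3, 30.4 and 14.5 in LPS1, LPS2 and LPS3. CXCL13L3, 889 bases away on the other side, did not exceed 1.96 FPKM in any library. The 3 genes have like names and adjoin, so reads shared between them could have been divided by the counting.

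CCL19, a ligand of CCR7 that guides dendritic cells and T cells to lymphoid tissue, was low. CCL19 (chromosome Z, 8901316 to 8904553, minus strand) had 10.6, 2.44 and 5.80 FPKM in LR1_2, LR3 and LR4, against 6.36, 2.07 and 2.01 in LPS1, LPS2 and LPS3. The groups overlapped, with LPS1 above LR3 and LR4 (log2 fold change 0.70 ± 0.63 SE, adjusted p = 0.815, edgeR). The fold change was 0.03 without LR1_2, 1.21 without LR3 and 1.48 without LPS1. CCL21, the other CCR7 ligand, lies 3582 bases away and had 5.27, 1.52 and 7.51 FPKM in LR1_2, LR3 and LR4, against 0.969, 1.53 and 1.37 in LPS1, LPS2 and LPS3 (log2 fold change 1.69 ± 0.60 SE, adjusted p = 0.26, edgeR).

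CXCL12, the stromal ligand of CXCR4, was the scarcest of the 11. CXCL12 (chromosome 6, 19780252 to 19797424, minus strand) had 0.365, 0.0509 and 0.575 FPKM in LR1_2, LR3 and LR4, against 0.536, 0.590 and 0.197 in LPS1, LPS2 and LPS3. These levels rested on 152, 19 and 165 counts in the LPS+LR21 libraries and on 199, 208 and 81 in the LPS libraries. Its log2 fold change of -0.62 ± 0.85 (SE, adjusted p = 0.902) was -0.02 without LR3, so that its distance from 0 rested on that library (edgeR). The 11 markers of fibroblasts and smooth muscle summed to 14.4 to 21.9 FPKM in LPS+LR21 and 34.4 to 55.8 in LPS, and their part in the CXCL12 values was not tested.

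**Figure D3:**
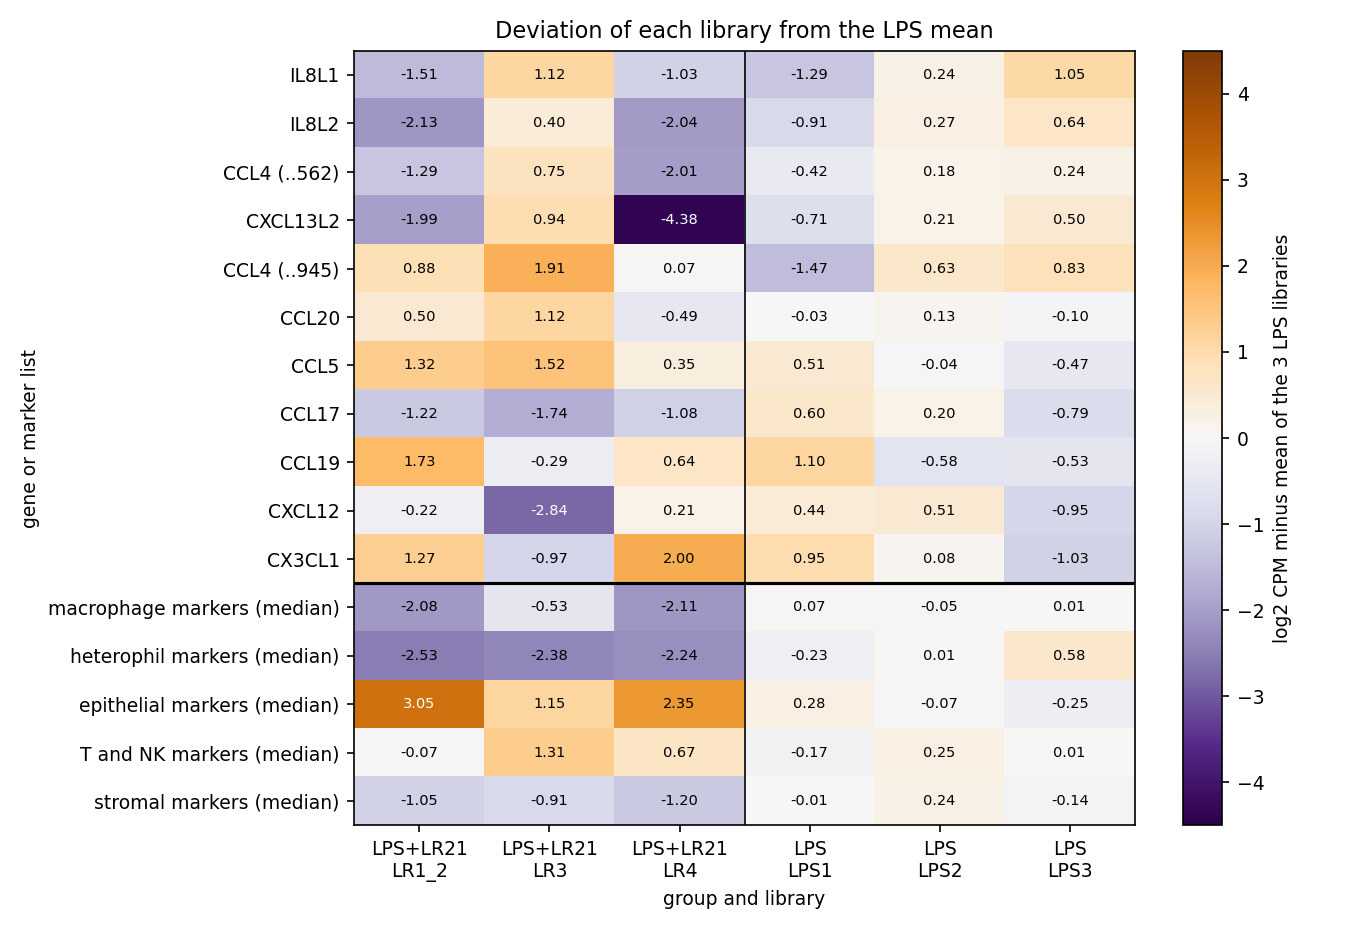
Log2 CPM with TMM factors of each ligand gene, and the median of 5 marker lists below the line, as the difference of each library from the mean of the 3 LPS libraries; LPS+LR21 libraries are the left 3 columns. IL8L2 reads -2.13, 0.40 and -2.04 in LR1_2, LR3 and LR4, CX3CL1 reads 1.27, -0.97 and 2.00, and the macrophage markers read -2.08, -0.53 and -2.11.

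The order of the libraries differed from ligand to ligand. LR3 was the highest LPS+LR21 library for 7 genes (IL8L1, IL8L2, both CCL4 genes, CCL5, CCL20 and CXCL13L2) and the lowest for the other 4 (CCL19, CCL17, CXCL12 and CX3CL1). It was at an end of its group for all 11, beside 82.2% of the 9839 tested genes that averaged 1 FPKM or more. Of those genes LR3 was highest in 3752 and lowest in 4340, and CXCL12 was too low to be among them. In the LPS group LPS1 was the lowest library for IL8L1, IL8L2, both CCL4 genes and CXCL13L2. LPS3 had the lowest FPKM for the other 6, CCL5, CCL19, CCL20, CCL17, CXCL12 and CX3CL1. For CCL19 this rested on 2.01 FPKM against 2.07 in LPS2, and with TMM factors LPS2 was lowest. How often LPS1 or LPS3 was the lowest LPS library over all tested genes was not computed. IL8L1, IL8L2, both CCL4 genes and CXCL13L2 were therefore high in LR3 and low in LPS1, while CCL19, CCL17, CXCL12 and CX3CL1 were low in LR3 and in LPS3. This grouping was made after the values were seen and has no test.

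**Figure D4:**
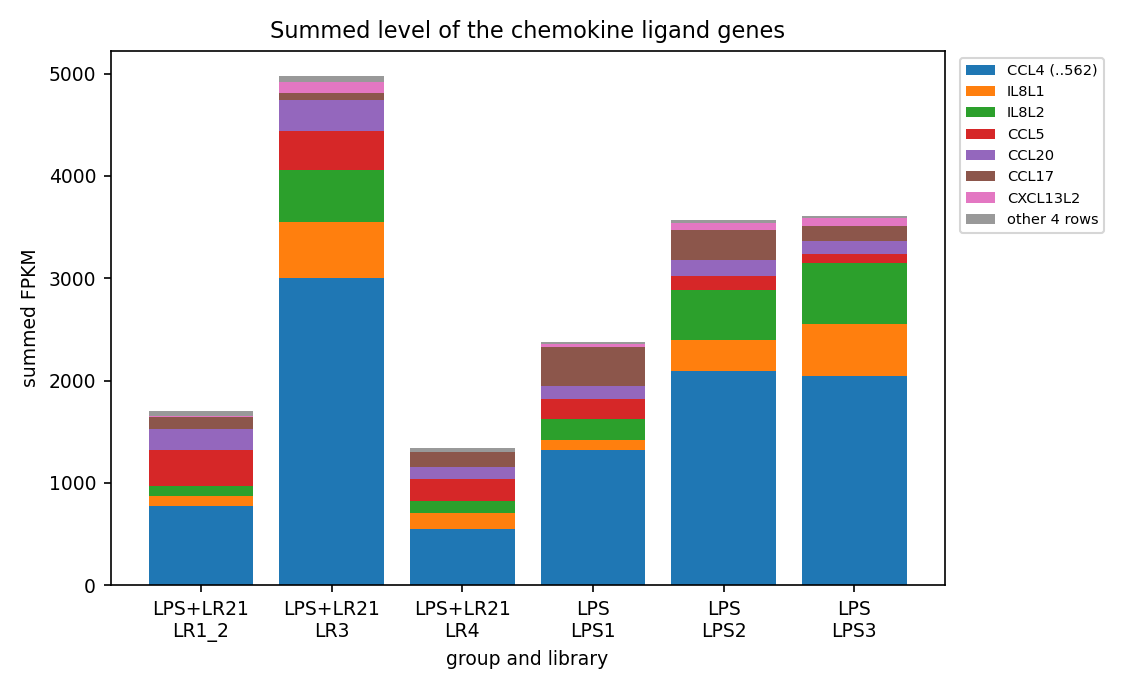
Summed FPKM of the 11 ligand genes in each library, divided by gene, with the 3 LPS+LR21 libraries at the left; the other 4 rows are the second CCL4 gene, CCL19, CXCL12 and CX3CL1. CCL4 makes up 41.1% to 60.3% in LPS+LR21 and 55.7% to 58.6% in LPS, and the sum is 1340 to 4975 FPKM in LPS+LR21 and 2373 to 3610 in LPS.

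Genes whose library pattern was nearest to a ligand were sought among 2997 named genes with a mean of at least 10 FPKM, by the root-mean-square difference of log2 CPM over the 6 libraries after each gene was centred on its own mean. The 6 libraries differ in depth and in cell type markers as described above, and the part of these differences in the matches was not tested. Such a search returns a nearest gene for any gene. Distances of nearest matches for other genes were not computed, so these matches do not show shared regulation. IL8L2 was nearest to NFKBIZ and MAP3K8, which encode an inhibitor-like regulator of NF-kB and a kinase of toll-like receptor signalling, at 0.17 and 0.19. NFKBIZ had 24.6, 91.9 and 21.8 FPKM in LR1_2, LR3 and LR4, against 40.0, 98.7 and 128 in LPS1, LPS2 and LPS3. IL8L1 was nearest to SNX10, a sorting nexin gene (0.18), and to LGALS1A, a galectin gene (0.37). The abundant CCL4 gene was nearest to SLC41A1, a magnesium transporter gene (0.20), and GSL (0.21). The second CCL4 gene was less closely matched, by G0S2 (0.44), an inhibitor of triglyceride breakdown, and PTTG2 (0.45). CCL17 was nearest to the lipid receptor genes SCARB1 and CD36, each at 0.38, and CXCL13L2 to AVD, which encodes avidin (0.46), and to TREM2, a macrophage receptor gene (0.52). CX3CL1 was nearest to BAMBI, a pseudoreceptor gene of the TGF-beta family (0.44), and SLC17A5 (0.53). CCL20 was nearest to DBR1 and PSMG2 (0.22 each), CCL5 to SNORD14 and CSTB (0.31 each), and CCL19 to CHMP1B (0.35) and DECR2 (0.38). CXCL12 was too low for this comparison.

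Receptors were measured in the same libraries, and 17 of 19 listed symbols were in the table and 15 were tested. None of them passed (5 at an unadjusted p under 0.05, edgeR; 3 called by DESeq2 and 5 by limma-voom with quality weights), 11 had log2 fold changes below 0 and the median was -0.59. Of all 20745 tested genes 11723 were fitted below 0 and 2502 had an unadjusted p under 0.05 (edgeR). DESeq2 called 6.56% and limma-voom 9.43% of tested genes in either direction. The 19 macrophage markers had a median of -1.39 in the same fit, and their part in the receptor values was not tested. Without LR3, 5 of the 15 fell (edgeR), CXCR4, CX3CR1 and CCR2 among them, beside 3.82% of tested genes that fell and 8.65% called in either direction. The receptors that DESeq2 called were CXCR4 and CCR2 as lower and CCR9 as higher. Receptors other than CXCR4, CCR2 and CCR9 were picked for description after their values were seen. CXCR4, the receptor of CXCL12, was the most abundant receptor, with 84.7, 296 and 182 FPKM in LR1_2, LR3 and LR4, against 713, 443 and 478 in LPS1, LPS2 and LPS3. Its groups did not overlap in FPKM, as was true of 19.4% of all tested genes, and its log2 fold change was -1.65 ± 0.49 (SE, adjusted p = 0.164, edgeR). CXCR7, the atypical receptor of CXCL12, stayed at or below 0.554 FPKM.

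CX3CR1, the receptor of CX3CL1, had 11.6, 35.3 and 18.3 FPKM in LR1_2, LR3 and LR4, against 42.1, 38.2 and 40.4 in LPS1, LPS2 and LPS3 (log2 fold change -0.99 ± 0.43 SE, adjusted p = 0.404, edgeR). LR1_2 and LR4, the 2 libraries highest in the ligand, were thus the 2 lowest in the receptor. They were also lowest in macrophage markers. As log2 CPM minus the LPS mean, the marker median read -2.08 in LR1_2, -0.53 in LR3 and -2.11 in LR4. Whether this bears on the CX3CR1 values was not tested. CCR2, a receptor of monocytes, had 8.66 ± 4.45 FPKM in LPS+LR21 and 21.8 ± 2.85 in LPS (SD, n = 3 each; log2 fold change -1.43, adjusted p = 0.155, edgeR). CCR9, a receptor of gut-homing lymphocytes in mammals, had the smallest p among the receptors and lay higher, at 0.696, 1.36 and 1.14 FPKM in LR1_2, LR3 and LR4, against 0.438, 0.257 and 0.245 in LPS1, LPS2 and LPS3 (log2 fold change 1.64 ± 0.47 SE, adjusted p = 0.15, edgeR).

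For the remaining pairs known from mammals, CXCR1 of the interleukin 8-type ligands had 0.335 to 1.21 FPKM in LPS+LR21 and 1.497 to 2.03 in LPS. CCR7 had 5.51 to 20.8 FPKM in LPS+LR21 and 8.74 to 18.2 in LPS, CCR6 had 3.05 to 3.36 and 2.08 to 4.44, and CCR4 had 0.496 to 2.86 and 0.492 to 1.21 in that order. CXCR5, the CXCL13 receptor, was too low to be tested, at no more than 17 counts in LPS+LR21 and no more than 6 in LPS. CCR10 had 15 counts in LR4 and none elsewhere. ACKR2, a decoy receptor that removes inflammatory CC ligands, had 3.212 ± 2.498 FPKM in LPS+LR21 and 6.69 ± 1.86 in LPS (SD, n = 3 each; adjusted p = 0.503, edgeR). Limma-voom with quality weights and edgeR without LR3 called it lower, beside 4.32% and 3.82% of tested genes.

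**Figure D5:**
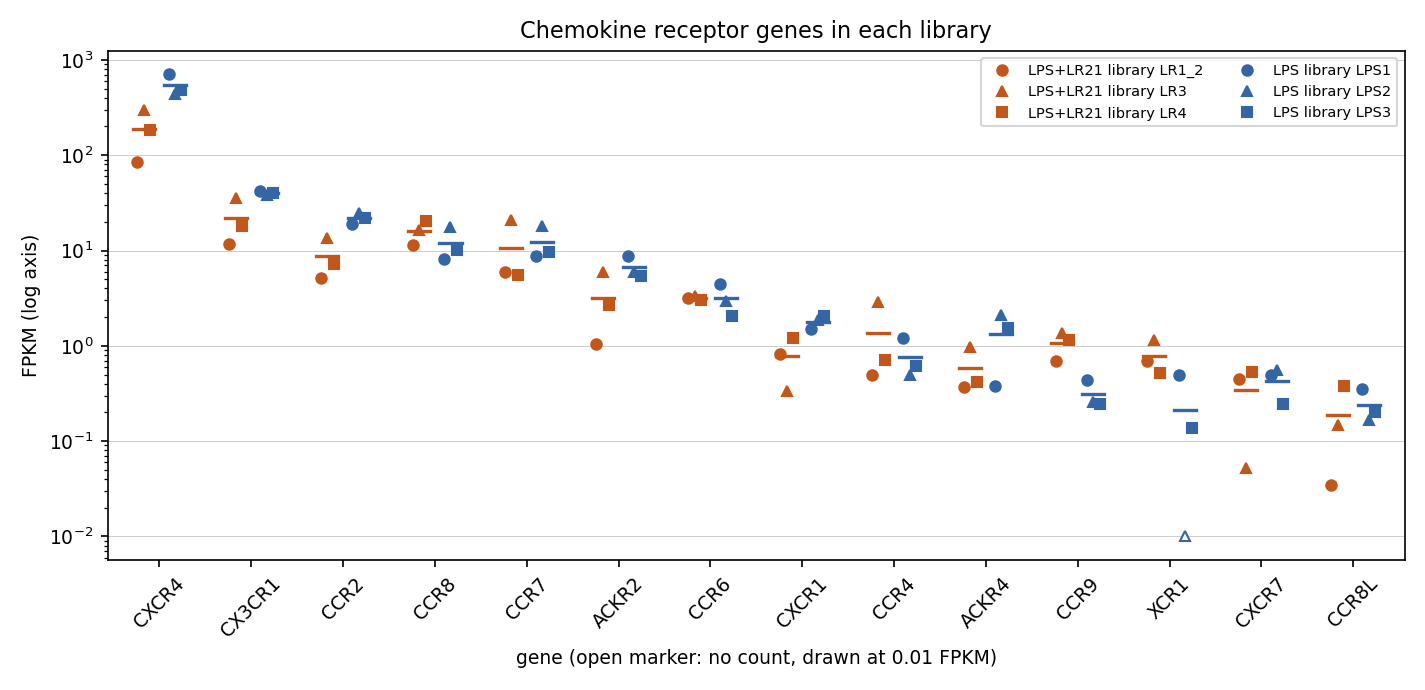
FPKM of tested chemokine receptor genes (log axis) in the LPS+LR21 libraries (orange, left) and the LPS libraries (blue, right); points are libraries, bars are group means, and the open marker is a library with no count. CXCR4 leads at 84.7 to 296 FPKM in LPS+LR21 and 443 to 713 in LPS, and CX3CR1 spans 11.6 to 35.3 FPKM in LPS+LR21 and 38.2 to 42.1 in LPS.

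Downstream of the receptors, 17 of 24 listed genes of G protein signalling and desensitisation were measured. None passed (3 at an unadjusted p under 0.05, edgeR; 1 called by DESeq2 and 9 by limma-voom with quality weights), while 16 of the 17 were fitted below 0, with a median of -0.82. Over all tested genes DESeq2 called 6.56% and limma-voom called 9.43%. In edgeR 11723 of 20745 were fitted below 0 and 2502 had an unadjusted p under 0.05. RGS18 and RGS1, regulators that switch G proteins off, had log2 fold changes of -1.17 ± 0.38 and -1.08 ± 0.44 (SE; adjusted p = 0.212 and 0.346, edgeR), and PIK3CG, the kinase activated by G protein subunits, had -0.88 ± 0.31 (adjusted p = 0.254, edgeR). RGS1 had 113 to 337 FPKM in LPS+LR21 and 407 to 428 in LPS. Without LR3, 9 of the 17 fell (edgeR), as did 17 of 19 macrophage markers and 3.82% of tested genes. The gene of this list that DESeq2 called was RGS18, as lower.

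Of 9 genes for proteins that cut, shed or bind chemokines, none passed (3 at an unadjusted p under 0.05, edgeR; 1 called by DESeq2 and 3 by limma-voom with quality weights). Of all 20745 tested genes, 2502 had an unadjusted p under 0.05 (edgeR), and DESeq2 called 6.56% and limma-voom 9.43%. DPP4, a membrane peptidase of enterocytes and lymphocytes that trims the ends of several chemokines, had 244, 135 and 279 FPKM in LR1_2, LR3 and LR4, against 81.3, 69.4 and 100.2 in LPS1, LPS2 and LPS3. Its groups did not overlap in FPKM, as was true of 19.4% of all tested genes (log2 fold change 1.22 ± 0.34 SE, adjusted p = 0.145, edgeR). The 17 epithelial markers had a median of 2.37 in the same fit, and their part in the DPP4 values was not tested. ADAM17, which with ADAM10 releases CX3CL1 from the membrane in mammals, had 0.499 to 1.07 FPKM in LPS+LR21 and 1.13 to 1.96 in LPS (adjusted p = 0.239, edgeR). ADAM10 had 22.1 to 25.3 FPKM in LPS+LR21 and 21.9 to 26.7 in LPS, and the matrix metalloproteinase gene MMP2 was fitted at -1.22 ± 0.50 on the log2 scale (SE, adjusted p = 0.353, edgeR). Without LR3, DPP4 rose and MMP2 and MMP9 fell (3 of 9, beside 8.65% of tested genes called, edgeR). Limma-voom called the same 3, and DESeq2 called DPP4 alone, as higher.

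Of chemokine ligand genes outside the 10 symbols, 8 were in the table and none passed (3 at an unadjusted p under 0.05, edgeR; 1 called by DESeq2 and 2 by limma-voom with quality weights). Beside them, 2502 of 20745 tested genes had an unadjusted p under 0.05 (edgeR), and DESeq2 called 6.56% and limma-voom 9.43%. CCL26 was the most abundant, with 94.5, 267 and 141 FPKM in LR1_2, LR3 and LR4, against 367, 229 and 345 in LPS1, LPS2 and LPS3 (log2 fold change -1.01 ± 0.45 SE, adjusted p = 0.412, edgeR). XCL1, lymphotactin, a ligand made by T and NK cells, had 11.6, 35.2 and 46.0 FPKM in LR1_2, LR3 and LR4, while the LPS libraries stood together at 11.6, 13.3 and 11.99 FPKM (log2 fold change 1.17 ± 0.44 SE, adjusted p = 0.285, edgeR). CCLL4, a CCL4-like gene named after its values were seen, had 1.11, 11.9 and 1.23 FPKM in LR1_2, LR3 and LR4, against 2.17, 7.06 and 9.81 in LPS1, LPS2 and LPS3, and thus also had its highest value in LR3 and its lowest LPS value in LPS1. Without LR3, CCL21 rose and CCL26 fell (2 of 8, beside 8.65% of tested genes called, edgeR). Limma-voom called the same 2, and DESeq2 called CCL21 alone, as higher. CXCL14, and CCLI5 (likewise named after its values were seen), stayed at or below 0.161 and 0.431 FPKM.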

How the data were processed

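The deposited table holds whole-number counts and FPKM per gene and library, per the file headers. Tools listed in the submitters' processing notes are HISAT2 2.0.4, StringTie 1.3.4d, cutadapt 1.9 and edgeR, with no roles. Genome build and strand handling are not given in the sources used here. Coordinates are those of the table. The counts were deposited without normalization. The LPS+LR21 columns carry other numbers than the sample titles and serve as 3 unnumbered replicates, and whether the column LR1_2 pools material of 2 samples is not known, which bears on n and every SD of that group; their 3 FPKM columns were not used. FPKM in the text was recomputed from the counts, the library totals and the lengths that the authors' FPKM of the LPS libraries imply. In the LPS libraries all recomputed values of 9889 genes with at least 100 counts lay within 5% of that same FPKM. The lengths came from those values, so this shows only that a single length per gene serves the LPS libraries. Recomputed FPKM of the LPS+LR21 libraries was not checked. No 2 libraries agreed within sampling noise (lowest chi-square per degree of freedom 107). The labels name no separate birds, so p-values measure only how these samples differ among themselves, which could be technical variation.

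The test was edgeR 4.0.16 in R 4.3.3: filterByExpr (20745 of 27656 genes), TMM factors (0.928 to 1.19), glmQLFit and glmQLFTest with no covariate, two-sided, with Benjamini-Hochberg adjustment over all tested genes at 0.05; it was tested on simulated data. SE is the log2 fold change over the square root of F. Alternatives were DESeq2 1.42.0, limma-voom (limma 3.58.1) with quality weights, RLE factors, library totals, scaling to 19 macrophage markers, 2 other filters and each library left out. Ratios of members, chosen with the levels known, used exact permutation tests (SciPy 1.17.1).

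The members and lists were chosen with earlier results of these data known. Listed symbols were matched by name or RefSeq synonym (assembly GRCg7b). By rule, the text names the members, the 3 genes of smallest p in each pathway list where fewer passed, other ligands by symbol, EPCAM and CSF1R, and the 2 nearest genes by library pattern for members averaging 1 FPKM or more. The other receptors, ADAM10, MMP9, GZMA, CCLL4 and CCLI5 were named after their values were seen. The values of 1 receptor gene are not reported here.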

Additional observations from a re-analysis of the deposited data

How the results depend on the processing

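Of 142 values of a ligand gene under an alternative, 11 had the other sign and 12 passed the threshold. Scaled to the macrophage markers, the median of all tested genes moved from -0.14 to 1.51 and 4223 genes were called (219 in the main test). On that scale CCL5, CCL19, CCL20, CX3CL1 and the second CCL4 gene, 5 in all, passed as higher, at 0.39 to 1.44 above that median. The signs of IL8L1 (0.74), IL8L2 (0.12), the abundant CCL4 gene (0.65), CCL17 (0.32), CXCL12 (1.33) and CXCL13L2 (0.21) turned, all 6 below the median. DESeq2 called 1361 genes and 1 ligand, limma-voom with quality weights 1956 and 3, and a filter at a mean of 5 CPM 367 genes. With 1 library left out, 0 to 1945 genes (edgeR; 1643 to 4106 at an unadjusted p under 0.05) and 0 to 3 ligands (1 to 7 unadjusted) were called; only leaving out LR3 gave any. Leaving out LR1_2, LR4 or LPS3 turned IL8L1, which ranged from -1.47 to 0.34, and leaving out LR4 turned the abundant CCL4 gene (-1.52 to 0.10) and CXCL13L2 (-2.68 to 0.08). The cause was not tested. IL8L2 ranged from -2.13 (without LR3) to -0.46 (LR4), CXCL12 from -1.01 (LR4) to -0.02 (LR3) and CX3CL1 from 0.47 (LR4) to 1.59 (LPS1). CCL5 and CCL17 kept their sign with each library left out (0.89 to 1.46 and -1.73 to -1.10). No paired analysis was possible because the LPS+LR21 columns carry no numbers of the sample titles. Among the 11 ligand genes the lowest counts were 19 for CXCL12 in LR3, 81 for CXCL12 in LPS3 and 91 for CXCL13L2 in LR4. At the other values of these genes counting error is small. Some other genes named here were scarcer, and CXCL14, CCLI5 and CXCR5 had no count in LR4. The 3 libraries per group limit the precision.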
